A study of Rattus norvegicus with 24 samples.

Results

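Genes of cholesterol and fatty acid synthesis were followed on Affymetrix arrays of the rat supraoptic nucleus, a hypothalamic nucleus of vasopressin and oxytocin neurons, in dehydrated and control rats. The gene list held 30 members: 18 enzymes of the sterol branch, 5 enzymes of the fatty acid branch, 5 regulators of the SREBP system, the sterol carrier Stard4 and the phosphatidate phosphatase Lpin1. Every probe set whose single symbol in the platform annotation was a member was taken, which gave 49 probe sets of 29 genes, out of 14217 genes with such a symbol. Hmgcs1 matched no probe set and was not analysed here. In dehydrated males 8 of the 29 genes rose and none fell, where 8.32% of all probe sets tested rose and 9.38% fell. Of these genes 6 were sterol enzymes and the others were the regulators Insig1 and Insig2. Fdft1 and Insig2 rose on 1 of their 2 probe sets. In dehydrated females, where 1.77% of all probe sets tested rose, Acat2 passed the test and Hsd17b7 passed on 1 of its 2 probe sets. Both female calls were marginal (limma adjusted p of 0.0492 and 0.0476). Each was kept in 1 of 8 runs that left out 1 array. No fatty acid enzyme passed the test in either sex, which for 5 enzymes lies near the general shares.

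Each array was hybridised with the pooled RNA of 5 rats of the Sprague Dawley strain. Males, 10 to 12 weeks old, were controls (5 arrays) or had been dehydrated for 3 days (5 arrays). Females, whose age the labels used here do not give, were euhydrated controls (4 arrays) or had gone 72 hours without water but with free access to food (5 arrays, of which 4 were used). Male RNA came from a QIAzol and RNeasy extraction followed by Ambion MessageAmp II amplification, and female RNA from a Trizol extraction with labelling by the Affymetrix protocol, so sex, extraction, labelling and software cannot be told apart between the sets. The labels allow the pools of a group to be read as biological and as technical replicates; p-values therefore measure the spread between pools, which may be partly technical.

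The tissue check rested on Avp and Oxt, the vasopressin and oxytocin genes. Their deposited signals were 3644 to 7666 and 3001 to 6698 on 18 arrays, but 50.6 and 26.0 on the fifth array of dehydrated females. That array also correlated less with the other female arrays (median r of 0.815 across probe sets on the log2 scale, against 0.925 to 0.973 among the rest), and it was left out. In this bulk tissue, fewer cells of a type and less RNA per cell cannot be told apart.

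Cholesterol is built from acetyl-CoA through mevalonate to farnesyl diphosphate, which squalene synthase commits to sterols, and a chain of endoplasmic reticulum enzymes then turns squalene through lanosterol into cholesterol. SREBP-2 mainly drives the sterol genes and SREBP-1c mainly the fatty acid genes; SCAP carries SREBPs to the Golgi for cleavage, and INSIG proteins hold SCAP back when sterols are plentiful, while Insig1 is itself an SREBP target. In the brain most cholesterol is made locally, because lipoprotein cholesterol hardly crosses the blood-brain barrier.

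The promoter windows of 4 genes that rose in males are shown because SREBPs act together with NF-Y, which binds CCAAT, at many sterol gene promoters. They are RefSeq sequences of GRCr8, chosen after the values were seen, among the genes that rose and have a sequence before the annotated gene. Each runs 5′ to 3′ on the gene's strand up to 250 bases before the start and ends where the annotated gene begins; capitals mark CCAAT on either strand (CCAAT or ATTGG). The Acat2 window lies at chr1:50100590-50100839 (plus strand), that of Fdps at chr2:176804817-176805066 (minus strand), that of Hsd17b7 at chr13:84722811-84723004 (minus strand) and that of Insig1 at chr4:8057813-8058019 (minus strand).
Acat2: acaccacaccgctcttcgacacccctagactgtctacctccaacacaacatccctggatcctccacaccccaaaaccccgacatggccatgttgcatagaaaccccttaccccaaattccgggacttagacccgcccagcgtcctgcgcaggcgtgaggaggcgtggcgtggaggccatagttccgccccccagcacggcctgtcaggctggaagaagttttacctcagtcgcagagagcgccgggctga
Fdps: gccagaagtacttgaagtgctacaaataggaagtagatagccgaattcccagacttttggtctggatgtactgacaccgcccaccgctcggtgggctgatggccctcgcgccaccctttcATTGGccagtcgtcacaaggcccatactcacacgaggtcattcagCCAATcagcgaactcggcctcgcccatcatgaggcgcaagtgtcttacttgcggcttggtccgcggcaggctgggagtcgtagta
Hsd17b7: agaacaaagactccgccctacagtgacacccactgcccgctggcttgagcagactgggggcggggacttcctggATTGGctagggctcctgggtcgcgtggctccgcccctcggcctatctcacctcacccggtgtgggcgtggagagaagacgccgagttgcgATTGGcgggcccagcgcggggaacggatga
Insig1: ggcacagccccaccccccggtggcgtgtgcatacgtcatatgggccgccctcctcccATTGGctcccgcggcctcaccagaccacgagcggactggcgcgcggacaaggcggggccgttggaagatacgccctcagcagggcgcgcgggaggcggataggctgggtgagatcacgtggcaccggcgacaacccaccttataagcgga

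The windows of Fdps, Hsd17b7 and Insig1 held the CCAAT letters, and that of Acat2 did not. Members that did not rise were also mixed: Mvk held 5 matches and Msmo1 3, while Cyp51 and Dhcr7 held 0. The letters therefore do not mark the genes that rose. RefSeq promoters were matched by symbol for 23 of the 30 members (24 promoters). In the 250 bases before the start, CCAAT on either strand was present in 19 of 24 member promoters and in 34.0% of all 33469 promoters, and in 12 of 15 sterol enzyme promoters. GGGCGG, the letters of an SP1 box, were in 19 of 24 and in 30.5% of all. CACGTG, an E-box, was in 3 of 24 and in 5.59% of all. TCACNCCAC, a form of the sterol regulatory element, was in 0 of 24 and in 0.974% of all, which says only that these letters are not in these windows. These matches are descriptions of sequence, and no binding was measured.

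Values below are the deposited signals, a linear brightness per probe set whose trimmed mean is about 100 on every array. They are comparable for 1 probe set between arrays of the same set, not between genes or between the male and female sets. Changes compare dehydrated with control arrays as differences of log2(value + 32), after each array was brought to a trimmed mean of 500, and ± is the standard error from limma. A gene rose or fell where limma's p, adjusted by Benjamini-Hochberg over the 21729 probe sets tested, was under 0.05. A gene with several probe sets is represented by the brightest over the arrays of the set tested; for Hsd17b7 this is one probe set in females and the other one in males and in the comparison of the sets.

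In males 8 of 29 genes rose and none fell, where 8.32% of all probe sets tested rose and 9.38% fell. In all 8 every dehydrated array exceeded every control array; so did Mvk, which did not pass the test, making 9 of 29 genes against 6.82% of all probe sets. The median change was 0.17 over the 17 sterol enzymes and -0.04 over all probe sets tested. Of the sterol enzymes 15 of 17 had a positive change, which became 13 of 17 after quantile normalization and 17 of 17 with arrays centred on their medians; 43.0% of all probe sets tested were positive. With that median centring 14 genes rose, the additions being Cyp51, Idi1, Mvk, Nsdhl, Elovl6 and Fasn, and the calls over all probe sets moved from 1808 higher and 2038 lower (47.0% higher) to 2710 higher and 1091 lower (71.3%).

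**Figure D1:**
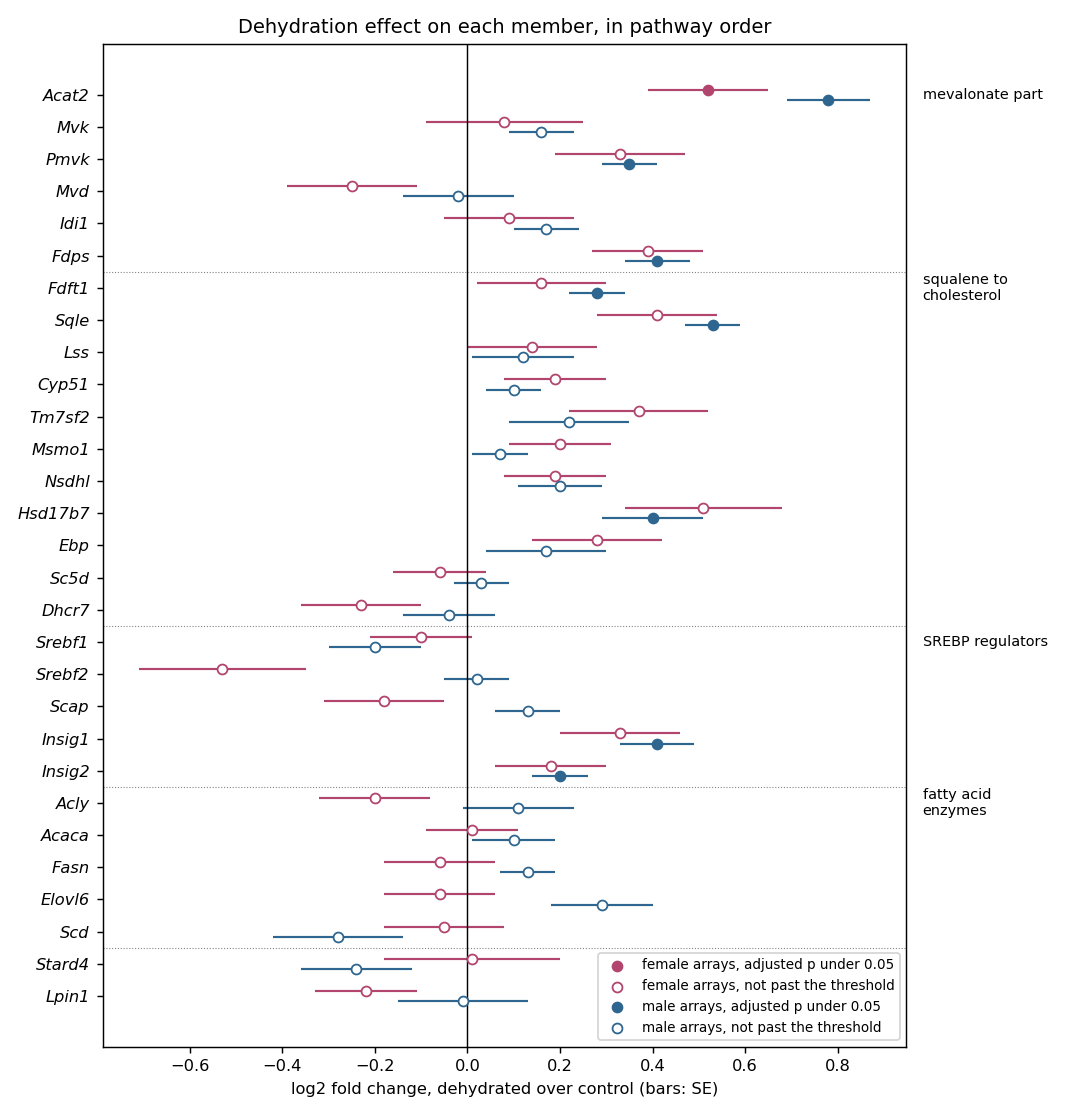
Log2 fold change, dehydrated over control, of the 29 measured genes from top to bottom in pathway order, females in red and males in blue; bars are standard errors and filled points have a limma adjusted p under 0.05. In males 8 points are filled, all right of 0, with Acat2 farthest out at 0.78; in females the Acat2 point at 0.52 is the filled one; the female and male Hsd17b7 points are different probe sets.

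Acat2, the cytosolic acetoacetyl-CoA thiolase that starts the mevalonate route, had the largest change of the members in males. Its signals on the 5 male control arrays were 196.1, 242.8, 236.7, 279.2 and 288.6. On the 5 dehydrated arrays they were 378.3, 439.1, 415.9, 461.5 and 446.0. Every dehydrated array lay well above the highest control. The log2 fold change was 0.78 ± 0.09 (1.71-fold, limma adjusted p = 7.1e-05). RefSeq also lists Acat2l1 and pseudogenes named after Acat2, and whether they share this probe set was not analysed here; pseudogenes named after Fdps, Idi1, Nsdhl and Scd are listed too.

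The route then leads to mevalonate, which the kinases Mvk and Pmvk phosphorylate. Pmvk, phosphomevalonate kinase, read 222.8, 226.2, 226.4, 231.1 and 243.3 on male controls. It read 267.3, 299.4, 311.7, 292.1 and 305.9 on dehydrated males. The controls were tight and the groups did not overlap (0.35 ± 0.06, limma adjusted p = 0.00158). Mvk, mevalonate kinase, had groups that just separated, 120.8 to 136.8 against 139.0 to 156.6, but a change of 0.16 ± 0.07 that missed the threshold (adjusted p = 0.149). Mvd, the decarboxylase of the next step, was at -0.02 ± 0.12 in males, with a 95% interval of -0.28 to 0.23. Idi1, isopentenyl diphosphate isomerase, gave 0.17 ± 0.07 (adjusted p = 0.095), with overlapping groups.

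Fdps makes farnesyl diphosphate, the last intermediate shared with the isoprenoid side branches. Its male control signals were 518.9, 650.7, 617.4, 566.9 and 644.5. Its dehydrated signals were 711.0, 836.3, 807.3, 856.5 and 787.2. The lowest dehydrated array was above the highest control, and Fdps rose by 0.41 ± 0.07 (1.33-fold, limma adjusted p = 0.00122). Over the mevalonate part, 3 of 6 measured genes rose in males, with a median change of 0.26.

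Of the 11 enzymes from squalene synthase on, 3 rose in males, with a median change of 0.17. Fdft1 is squalene synthase. It read 348.1, 319.9, 338.1, 378.7 and 367.4 on male controls and 398.2, 447.4, 408.1, 444.2 and 442.0 on dehydrated males. The groups stood close without overlapping (0.28 ± 0.06, limma adjusted p = 0.00655). Its dimmer probe set showed 0.01 ± 0.12, so the rise was seen on 1 of its 2 probe sets. With all 4 groups in 1 fit, Fdft1 no longer passed (adjusted p = 0.0635).

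Sqle, squalene epoxidase, makes the oxygen-dependent first step from squalene and is a control point of the branch. Male controls read 299.2, 283.7, 305.2, 278.8 and 299.6. Dehydrated males read 407.0, 443.8, 463.7, 403.6 and 416.3. Both groups were tight and lay far apart (control mean 293.3 ± 11.4 SD, n = 5; dehydrated mean 426.9 ± 25.9 SD, n = 5). Sqle had the smallest adjusted p of the members (0.53 ± 0.06, 1.44-fold, limma adjusted p = 3.9e-05).

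Hsd17b7, the 3-ketosteroid reductase that acts with Nsdhl in removing the C4 methyl groups, rose on both of its probe sets. On the probe set brighter in males, control arrays read 53.7, 68.8, 61.1, 63.9 and 67.2 and dehydrated arrays 74.2, 91.1, 74.5, 86.4 and 100. All dehydrated arrays were higher, and the change was 0.40 ± 0.11 (limma adjusted p = 0.0173). The other probe set, which is the brighter one in females, gave 0.52 ± 0.11 (adjusted p = 0.00668), also without overlap. Nsdhl, the decarboxylating dehydrogenase of that complex, differed between its probe sets. The brighter gave 0.20 ± 0.09 (adjusted p = 0.139) and the dimmer 0.40 ± 0.11 (adjusted p = 0.0242), whose call was lost without dehydrated array 2 or 4 or control array 2 or 3 (adjusted p of 0.0508, 0.0646, 0.0617 and 0.0634).

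The remaining enzymes of the male sterol branch did not pass. Those between lanosterol synthesis and the double-bond isomerase had positive values: Lss, lanosterol synthase, 0.12 ± 0.11; Cyp51, the lanosterol demethylase, 0.10 ± 0.06; the sterol reductase Tm7sf2 0.22 ± 0.13; Msmo1, the C4 methyl oxidase, 0.07 ± 0.06; and the isomerase Ebp 0.17 ± 0.13. The last steps lay near 0, with Sc5d, the lathosterol desaturase, at 0.03 ± 0.06 and Dhcr7, the 7-dehydrocholesterol reductase, at -0.04 ± 0.10. Dhcr7's 95% interval ran from -0.26 to 0.18, so a rise as large as that of Sqle lay outside it.

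**Figure D2:**
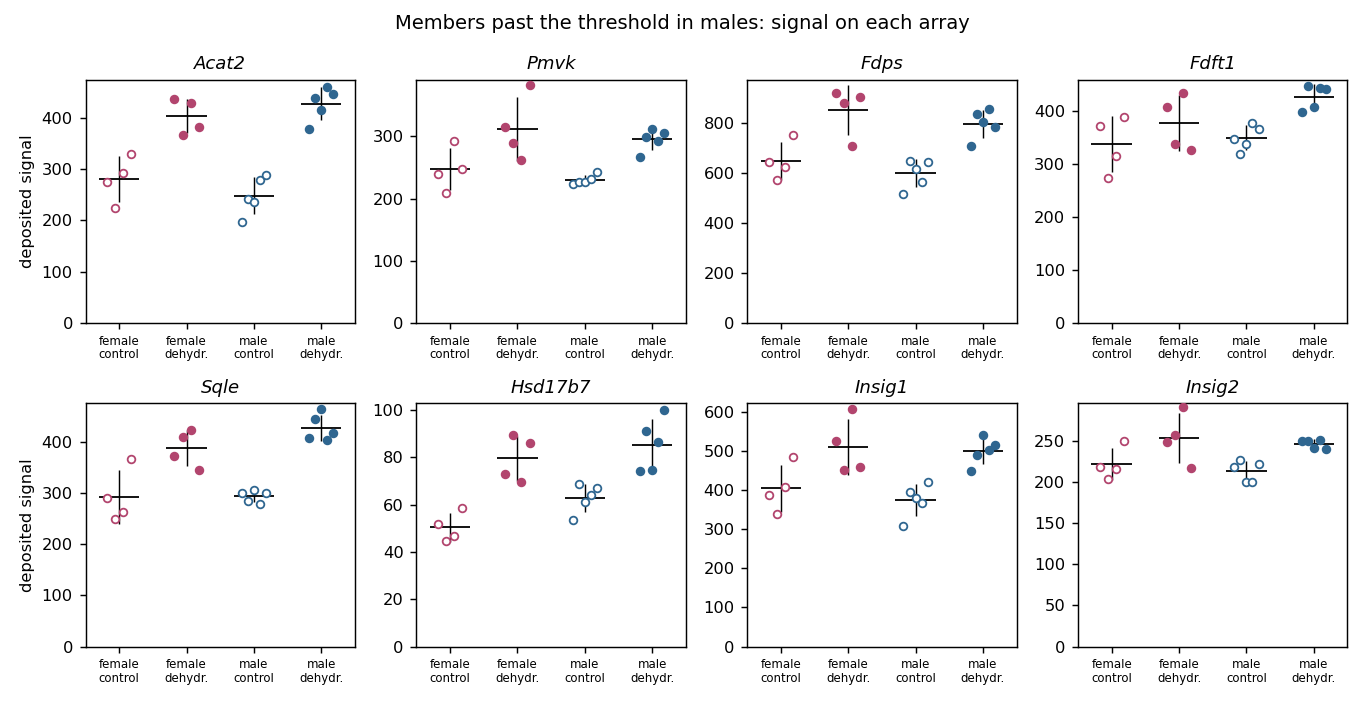
Deposited signal on each array (linear axis from 0, arbitrary brightness units) of the 8 genes that rose in males; open points are controls, filled points dehydrated, red females (4 and 4 arrays) and blue males (5 and 5), with the mean and SD in black. Filled blue points lie above all open blue points in each panel; in females that holds for Acat2 and for the Hsd17b7 probe set shown.

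In females Acat2 rose and no other of the 29 genes passed on its representing probe set, where 1.77% of all probe sets tested rose and 1.19% fell. Acat2 read 275.6, 223.8, 293.3 and 330.4 on control arrays and 436.6, 367.2, 428.8 and 383.2 on dehydrated arrays. The groups did not overlap, and the change was 0.52 ± 0.13 (1.44-fold, limma adjusted p = 0.0492). This call was marginal: it was lost when any array but control array 4 was left out (adjusted p of 0.0581 to 0.14). The Acat2 change stayed at 0.42 to 0.61 in those runs, and calls over all probe sets, 643 in the main fit, were 210 to 886. With the fifth dehydrated array kept the change was 0.25 (adjusted p = 0.87). In that fit only 1 of all probe sets passed, so the lost call is not particular to Acat2. Hsd17b7 also rose in females on the probe set that represents it in males, so on the male choice of probe sets 2 of 29 genes rose. It went from 51.7, 44.8, 46.8 and 58.4 to 73.0, 89.5, 69.7 and 85.9, without overlap (0.60 ± 0.14, limma adjusted p = 0.0476). It too lost the call on leaving out any array but dehydrated array 3 (adjusted p of 0.062 to 0.134). The probe set brighter in females gave 0.51 ± 0.17 (adjusted p = 0.136).

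On their representing probe sets, the other genes that rose in males had positive changes in females that did not pass. Sqle read 290.0, 249.5, 261.9 and 366.9 on female controls and 372.6, 409.1, 422.6 and 345.8 on dehydrated females. A single high control kept the groups from separating (0.41 ± 0.13, limma adjusted p = 0.115). Fdps read 647.0, 572.2, 625.9 and 753.9 on controls and 921.3, 883.1, 707.9 and 905.9 on dehydrated females. Dehydrated array 3 alone fell within the control range (0.39 ± 0.12, adjusted p = 0.11), and without it Fdps passed (0.48, adjusted p = 0.0417). Pmvk (0.33 ± 0.14), Insig1 (0.33 ± 0.13), Insig2 (0.18 ± 0.12) and Fdft1 (0.16 ± 0.14) had adjusted p between 0.209 and 0.572. The dimmer Fdft1 probe set had the opposite sign in females (-0.22 ± 0.15).

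Over the female sterol branch the median change was 0.19, with 14 of 17 positive, against -0.03 and 46.2% over all probe sets tested. The count was also 14 after quantile normalization and with median centring. At an unadjusted p under 0.05, 6 of 17 were higher, where 8.30% of all probe sets were higher. Tm7sf2 had groups that did not overlap, 65.8 to 103.2 against 105.6 to 130.9 (0.37 ± 0.15, adjusted p = 0.197). With Acat2, 2 of 29 genes separated upward, a count near the 5.31% of all probe sets that did. Mvd (-0.25 ± 0.14), Dhcr7 (-0.23 ± 0.13) and Sc5d (-0.06 ± 0.10) were the negative ones, none past the test. Centring on medians moved the calls over all probe sets from 384 higher and 259 lower (59.7% higher) to 348 and 114 (75.3%), with Acat2 as the member called in both. With all 4 groups in 1 fit, 5 members passed in females: Acat2, Fdps, Hsd17b7 and Sqle rose and Srebf2 fell. The share of all probe sets called went from 2.96% to 10.7% in that fit.

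The fatty acid branch comprises Acly, which releases cytosolic acetyl-CoA from citrate; Acaca, which carboxylates it to malonyl-CoA; Fasn, which builds palmitate; the elongase Elovl6; and the desaturase Scd. None of the 5 passed in either set; at an unadjusted p under 0.05, 2 were higher in males, where 13.1% of all probe sets were, and 0 in females. Elovl6 came nearest. Its male controls read 126.5, 120.5, 123.9, 151.9 and 146.3 and its dehydrated arrays 209.8, 153.3, 151.1, 187.2 and 133.0, with dehydrated arrays 3 and 5 inside the control range (0.29 ± 0.11, limma adjusted p = 0.0895). It passed without dehydrated array 5 (0.37, adjusted p = 0.042) and with median centring (0.37, adjusted p = 0.0407). In females Elovl6 was at -0.06 ± 0.12. Its other probe set gave 0.26 ± 0.17 in females and 0.30 ± 0.13 in males, so the 2 probe sets differed in sign in females.

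Fasn read 686.3, 706.6, 767.5, 710.1 and 704.8 on male controls and 748.4, 781.5, 869.5, 746.2 and 760.2 on dehydrated males. Control array 3 overlapped the dehydrated group, and the change was 0.13 ± 0.06 (limma adjusted p = 0.137), passing with median centring (0.20, adjusted p = 0.029). In females Fasn was at -0.06 ± 0.12, and its dimmer probe set gave -0.28 ± 0.15. Acly spread widely, from 705.4 to 1141.9 on male controls and 818.6 to 1181.7 on dehydrated males (0.11 ± 0.12). In females it was 858.6 to 1131.0 on controls and 778.8 to 965.1 on dehydrated arrays (-0.20 ± 0.12, adjusted p = 0.368). Acaca was at 0.10 ± 0.09 in males and 0.01 ± 0.10 in females. Scd had a negative value in males, 65.0 to 99.1 on controls against 46.0 to 81.6 (-0.28 ± 0.14, adjusted p = 0.189), and was at -0.05 ± 0.13 in females.

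Set side by side, 6 of 17 sterol and 0 of 5 fatty acid enzymes rose in males, and 1 of 17 and 0 of 5 in females. Of all probe sets tested 8.32% rose in males and 1.77% in females, so 0 of 5 lies near the general share in both. The branch medians differed by 0.06 in males (0.17 against 0.11) and by 0.20 after quantile normalization. The same difference, taken on each single array, had an SD of 0.06 within the male groups. The medians differed by 0.25 in females (0.19 against -0.06), where that SD was 0.14. These SDs are spreads of single arrays and not the error of a difference between groups. Leaving out female dehydrated array 4 turned the female fatty acid median to 0.01. Array by array, the mean deviation of the sterol enzymes from the controls of their set was -0.13 to 0.11 on male controls and 0.14 to 0.32 on dehydrated males. In females it was -0.15 to 0.13 on controls and 0.15 to 0.27 on dehydrated arrays. The groups narrowly did not overlap in either sex. The fatty acid mean overlapped in both, with -0.11 to 0.10 against 0.00 to 0.17 in males and -0.07 to 0.05 against -0.22 to 0.07 in females. The 2 means rest on unlike numbers of genes, 17 and 5. How often means of so many genes separate over all probe sets was not computed. Separation of one and overlap of the other are therefore no comparison of the branches, and no test of one branch against the other was made.

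**Figure D3:**
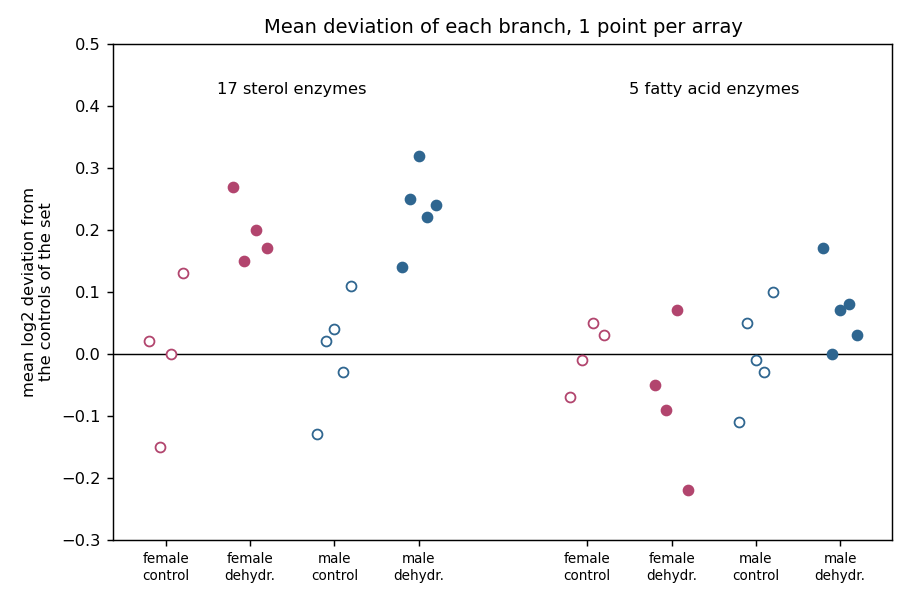
Mean log2 deviation of the 17 sterol enzymes (left) and the 5 fatty acid enzymes (right) from the mean of the control arrays of the same set, 1 point per array; open points are controls, filled points dehydrated, red females and blue males. The sterol points of dehydrated arrays (0.14 to 0.32 in males, 0.15 to 0.27 in females) lie narrowly above those of their controls, and the fatty acid points overlap. The means rest on unlike numbers of genes, and the branches were not tested against each other.

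Among the regulators, Insig1 and Insig2, the proteins that hold SCAP in the endoplasmic reticulum, rose in males. Insig1 read 308.6, 395.0, 380.2, 367.8 and 420.6 on male controls and 449.8, 489.0, 541.6, 503.2 and 514.7 on dehydrated males. Every dehydrated array was above every control (0.41 ± 0.08, 1.33-fold, limma adjusted p = 0.00256). In females it read 387.7, 339.0, 408.7 and 484.0 against 525.5, 450.5, 606.8 and 459.1, where 1 control lay among the dehydrated arrays (0.33 ± 0.13, adjusted p = 0.209). Insig2 changed less, from 218.7, 226.6, 199.9, 200.5 and 221.3 to 249.8, 249.2, 240.7, 251.4 and 239.5 in males (0.20 ± 0.06, adjusted p = 0.0366). The Insig2 call was lost without dehydrated array 1, 2, 4 or 5 or control array 3 or 4 (adjusted p of 0.0567 to 0.0883), without the variance trend (0.0594) and in 1 fit with all 4 groups (0.114). Its second probe set gave 0.10 ± 0.12.

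Neither of the SREBP genes passed the test in either set. Srebf2, which encodes SREBP-2, was at 0.02 ± 0.07 in males, with 182.5 to 209.3 on controls and 180.8 to 220.5 on dehydrated arrays. In females it read 285.1, 169.2, 309.4 and 234.6 on controls and 215.2, 160.4, 141.2 and 156.9 on dehydrated arrays. The dehydrated arrays were mostly lower, with overlap through control array 2 (-0.53 ± 0.18, limma adjusted p = 0.144); without that control array Srebf2 fell (-0.70, adjusted p = 0.0261). Srebf1, which encodes SREBP-1, was at -0.20 ± 0.10 in males (adjusted p = 0.18) and -0.10 ± 0.11 in females, and its dimmer probe set at -0.76 ± 0.25 in females (adjusted p = 0.131). Scap, the SREBP escort, was at 0.13 ± 0.07 in males and -0.18 ± 0.13 in females.

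**Figure D4:**
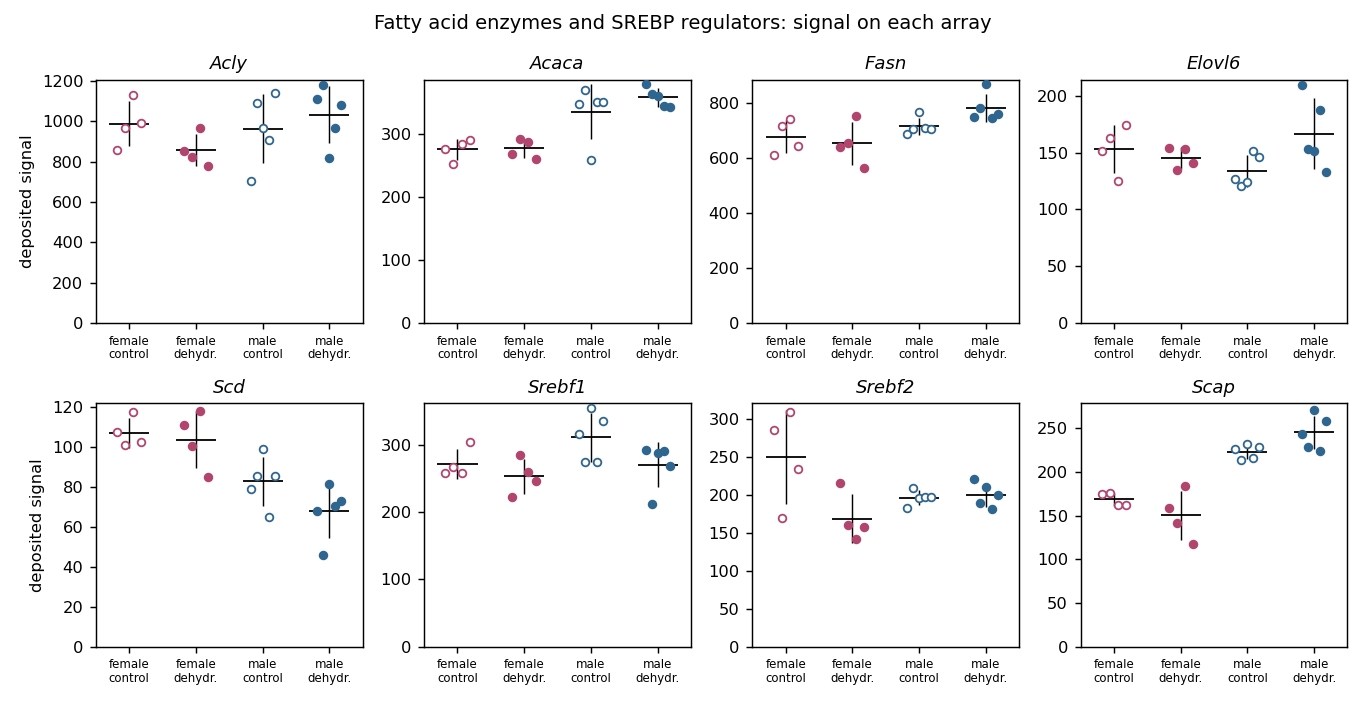
Deposited signal on each array (linear axis from 0, arbitrary brightness units) of the 5 fatty acid enzymes and of Srebf1, Srebf2 and Scap; open points are controls, filled points dehydrated, red females (4 and 4 arrays) and blue males (5 and 5), with the mean and SD in black. The dehydrated and control points overlap in every panel, with the female Srebf2 controls spread from 169.2 to 309.4.

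Stard4, a carrier of sterol between membranes and a target of SREBP-2, was at -0.24 ± 0.12 in males (limma adjusted p = 0.2) and 0.01 ± 0.19 in females, and its 3 probe sets differed in sign in males. Lpin1, which makes diacylglycerol from phosphatidate, read 142.1, 130.6, 129.8 and 144.5 on female controls and 116.3, 124.9, 105.9 and 120.0 on dehydrated females. These groups did not overlap, as in 7.03% of all probe sets in that direction, but the change missed the threshold (-0.22 ± 0.11, adjusted p = 0.301). In males Lpin1 was at -0.01 ± 0.14.

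The response to dehydration was compared between the sets by limma's interaction test, which 0 of 29 members and 7 of 21729 probe sets (0.0322%) passed. At an unadjusted p under 0.05, 2 of 29 members were higher, a count near the 4.73% of all probe sets that were. Both were regulators. Srebf2 had an effect 0.56 ± 0.19 higher in males than in females (unadjusted p = 0.00867, limma adjusted p = 0.309). Scap had one 0.31 ± 0.14 higher (unadjusted p = 0.0411, adjusted p = 0.473). For Acat2 the difference was 0.25, with a 95% interval of -0.08 to 0.58, and for Sqle 0.12, with an interval of -0.16 to 0.40. A smaller, an equal or a somewhat larger rise in females lies within both intervals. For Elovl6 the difference was 0.36 ± 0.17 (adjusted p = 0.503) on its representing probe set, but 0.04 ± 0.23 on its other probe set. The median standard error of a difference over the members was 0.15.

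All probe sets of a gene did not behave alike. In females 15 members had several probe sets tested, of which 7 differed in sign and 1, Hsd17b7, in call. In males 14 had several, of which 4 differed in sign and 3, Fdft1, Nsdhl and Insig2, in call. Of the 49 member probe sets, 46 in females and 45 in males were bright enough to be tested; the others were the dimmer sets of Mvk, Lss and Srebf2, and in males also of Acaca.

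Lists of neighbouring pathways, chosen with earlier results of these data known, were described by counts, to be read against the shares over all probe sets: 1.77% rose and 1.19% fell in females, and 8.32% rose and 9.38% fell in males. Of 18 genes of the isoprenoid and dolichol branch, which starts from the product of Fdps, Dolk alone rose in each set. Dolk, dolichol kinase, went from 207.4 ± 17.9 to 286.6 ± 21.1 in females (mean signal ± SD, n = 4 and 4; 0.46, limma adjusted p = 0.0438) and from 251.6 ± 18.4 to 342.4 ± 23.2 in males (n = 5 and 5; 0.44, adjusted p = 0.00078). Of 10 genes of SREBP processing and sterol sensing, none passed in females and Erlin2, an endoplasmic reticulum protein that takes part in the degradation of sterol-sensing proteins, fell in males (-0.30 ± 0.06, adjusted p = 0.00517).

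Of the genes of sterol uptake, efflux and breakdown, 1 of 21 rose in females, and 2 of 22 rose and 3 fell in males, where 8.32% of all probe sets rose and 9.38% fell, so the male counts lie near the general share. Lrp8, a receptor for lipoproteins and reelin, rose in both (0.46 ± 0.10 in females, limma adjusted p = 0.0397; 0.48 ± 0.11 in males, adjusted p = 0.00929). Scarb1, the HDL receptor, rose in males (0.36 ± 0.09, adjusted p = 0.0148). Ch25h, which makes 25-hydroxycholesterol, went from 120.2 ± 33.9 to 55.0 ± 21.1 in males (mean ± SD, n = 5 and 5; -1.06 ± 0.23, adjusted p = 0.00495), and Cyp27a1, which makes 27-hydroxycholesterol, from 82.7 ± 23.7 to 48.6 ± 8.23 (-0.67 ± 0.16, adjusted p = 0.0119). Both oxysterol enzymes fell with overlapping groups.

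Beyond the 5 fatty acid enzymes, 2 of 24 genes of fatty acid supply, elongation and desaturation rose in females, and 8 rose and 3 fell in males. Acsl5, an acyl-CoA synthetase, rose from 165.5 ± 22.4 to 283.1 ± 26.6 in females (mean ± SD, n = 4 and 4; 0.76, limma adjusted p = 0.00963) and from 193.7 ± 10.4 to 309.2 ± 16.9 in males (n = 5 and 5; 0.66, adjusted p = 1.2e-05). Hsd17b12, the ketoacyl-CoA reductase of fatty acid elongation, rose in females by 0.54 ± 0.09 (adjusted p = 0.0116). Fads3, a desaturase family member, rose in males by 0.69 ± 0.08 (adjusted p = 6e-05). Acsl1 (-0.44 ± 0.08) and the elongation dehydratase Hacd1 (-0.38 ± 0.12) fell in males.

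Of the fatty acid oxidation genes, Acadl, the long-chain acyl-CoA dehydrogenase, alone of 19 rose in females (0.48 ± 0.11, limma adjusted p = 0.0438), and 2 of 20 fell in males, Eci1 (-0.37 ± 0.09) and Hadh (-0.24 ± 0.07), a count near the 9.38% of all probe sets that fell. In glycerolipid and phospholipid synthesis 1 of 17 rose in females and 4 of 17 in males. Pemt, which methylates phosphatidylethanolamine to phosphatidylcholine, changed most, from 33.7 ± 2.80 to 93.0 ± 37.2 in females (mean ± SD, n = 4 and 4; 1.23 ± 0.23, adjusted p = 0.0178) and from 24.3 ± 5.76 to 88.2 ± 6.55 in males (n = 5 and 5; 1.64 ± 0.13, adjusted p = 2.2e-06). Dgat2, which makes triacylglycerol, rose in males (0.64 ± 0.09, adjusted p = 0.00021).

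Markers of cell types were measured on the same arrays, because oligodendrocytes and astrocytes make much of the brain's sterol. In females 5 of 13 oligodendrocyte markers fell, with a median of -0.66, and their summed signal was 7747 to 10986 on controls and 4344 to 7547 on dehydrated arrays, while the sterol median was 0.19. In males 0 of 13 passed and the sums, 9904 to 12479 and 8569 to 14465, overlapped. Of 11 astrocyte markers 1 fell in females and 3 in males, with overlapping sums of 16502 to 18899 and 15587 to 19410 in females and 19077 to 20651 and 16759 to 20246 in males. Markers of mural cells and meninges fell in 2 of 12 cases in females (sums of 2361 to 3278 against 1691 to 2141) and in 10 of 12 in males, where 1 rose (3035 to 7018 against 1710 to 3908). Microglia markers fell in 0 of 9 cases in females (sums of 909.2 to 1181 against 715.9 to 909.4) and 4 of 8 in males (929.2 to 1398 against 799.5 to 1045); endothelial markers in 0 of 9 in both sets; choroid plexus markers in 0 of 3 in females and 1 of 3 in males. Of 8 magnocellular neuron markers 3 rose in each set, with sums of 10389 to 11598 against 13104 to 21204 in females and 12055 to 14652 against 14256 to 17066 in males. Much of these sums is Avp (3644 to 7666 on the 18 arrays) and Oxt (3001 to 6698), so they do not measure the amount of neuronal tissue alone. Over all probe sets tested, 1.77% rose and 1.19% fell in females, and 8.32% rose and 9.38% fell in males. Sums cover every listed marker with a probe set, tested or not. No marker was at 0 on any of these 18 arrays, and the part of cell makeup in the changes of the sterol genes was not tested.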

How the data were processed

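Affymetrix rat arrays gave 1 intensity signal per probe set. The authors deposited these intensity values on a linear scale, made with GCOS 1.2 for males and MAS5 for females per the submitters' processing notes; background and summary settings are not given in the sources used here. For the 19 arrays with values, signals were multiplied to a 2% trimmed mean of 500 and taken as log2(value + 32). Without the 57 control probe sets, those above the 30th percentile of mean log2 over a fit's arrays were tested (21729 of 31099). limma 3.58.1 in R 4.3.3 (lmFit, eBayes with trend, tested on simulated data) compared dehydrated with control in each set and both effects by an interaction term. The columns of the 5 lactating samples held no values and were not analysed here. Members and lists were chosen with earlier results of these data known. All members were to be named, with up to 2 rises and 2 falls per neighbouring list and set; promoters were to be printed where they held TCACNCCAC, which none did. Alternatives were quantile normalization, median centring, offsets of 1 and 100, no filter and a filter at the 50th percentile, no variance trend, 1 fit of all groups, the fifth dehydrated female array kept, and each array left out. No pair of arrays held identical values. The number of arrays limits the precision. Figures were drawn with matplotlib 3.10.9 in Python 3.11.15.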

Additional observations from a re-analysis of the deposited data

Results flagged for a closer look

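In 6 of 116 member groups of 4 or 5 arrays, 1 array stood apart from the rest by Dixon's criterion, which chance meets in about 1 in 20 groups. Acaca read 258.2 on male control array 3, against 346.8 to 369.6 on the other controls. On dehydrated female array 3, Dhcr7 read 284.6 (others 191.7 to 199.5) and Fdps 707.9 (others 883.1 to 921.3). Nsdhl read 163.8 on male control array 2 (others 146.1 to 150.4) and 222.1 on dehydrated male array 3 (others 158.8 to 173.1). Srebf1 read 212.5 on dehydrated male array 2 (others 269.3 to 292.9).

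The fifth dehydrated female array, which the comparisons left out, had 18 of 29 members above every control female array and 9 below every control, where 44.8% and 33.2% of all probe sets were. On it Cyp51 read 2513 and Msmo1 1886, and Acat2 read 150.1, below all its controls. Its marker sums also lay apart from the female controls. They were 10172 for choroid plexus (controls 308.2 to 1193), 9007 for endothelium (2005 to 2238) and 26482 for oligodendrocytes (7747 to 10986). Sums were lower for magnocellular neurons, 1433 (10389 to 11598), and astrocytes, 15877 (16502 to 18899). The member readings on this array are therefore not given as an effect of dehydration, and their cause was not tested.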

How the results depend on the processing

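No member's called change turned sign under any alternative run. Of the 8 male genes, 6 were called under all 18 alternatives; Fdft1 and Insig2 were not. The male count was 14 with arrays centred on the median and 6 to 8 otherwise, and 7 to 8 when single arrays were left out. The female count of 1 became 0 with quantile normalization, with an offset of 1, without the filter and without the variance trend. It was also 0 with the fifth dehydrated array kept, where calls over all probe sets went from 643 to 1. The female count was 5 in 1 fit with all 4 groups, where the share of all probe sets called went from 2.96% to 10.7%. When single arrays were left out it was 0 to 1, with 210 to 886 of all probe sets called. The interaction count stayed 0 throughout. The sterol median exceeded the fatty acid median by 0.18 to 0.34 in females and 0.01 to 0.11 in males when single arrays were left out, and by 0.20 in males after quantile normalization. The cause of these shifts was not tested. With 4 female arrays a group, the median standard error of a member's change was 0.13, against 0.09 in males. No paired analysis was possible because the groups compared share no replicate number that the labels tie to a common pool or batch.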
